A study of Mus musculus with 6 samples.

Results

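The genes described here are 10 mouse genes of lipid transport and metabolism. They were measured in pro-B cell cultures with and without tamoxifen, which is meant to switch on a Gfi1b fusion protein in these cells. They are the lipid transporters Abca1 and Cd36, the choline carrier Slc44a1, the enzymes Acsm3, Pipox, Ugt1a9, Arsb, Fggy and P4ha1, and the membrane protein Tmem86a. Each was found by its symbol in the authors' deposited table, which lists changed genes. The 10 genes have 13 probe sets there, out of 251 in that table and 35557 on the arrays, and all 13 were kept apart. No row of the authors' deposited table has a fold under 1.503 in size or a p over 0.0451 between tamoxifen and untreated cells, and these genes were picked from it with their changes known. Every difference between the groups given below is therefore a description of these arrays and not independent evidence that the genes change. P4ha1, with a fold of -1.503 in the authors' deposited table, lay just inside that edge. Which values lie just outside for these genes is not known here, because rows outside the table carry no gene name.

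The cells are a pro-B line transformed by Abelson murine leukaemia virus, whose v-Abl kinase keeps early B cells dividing in culture. All 6 samples carry a retrovirus that encodes Gfi1b, a zinc finger repressor of transcription, joined to the oestrogen receptor domain. The 3 untreated samples (MINUS OHT) had no tamoxifen, and the 3 tamoxifen samples (PLUS OHT) had it in the medium for 12 h. One line was used, and tamoxifen-treated cells without the fusion were not analysed here, so that the fusion and tamoxifen itself cannot be told apart. The submitters call the replicates biological, and no label says whether they came from separate days. Array medians lay between 7.52 and 7.61 on the log2 scale, and precision is limited throughout by having 3 arrays a group.

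Cells take up fatty acids through carriers such as Cd36, activate them by joining them to coenzyme A, and burn or store them. Surplus cholesterol leaves through Abca1, and choline brought in by carriers such as Slc44a1 is built into phospholipids. Breakdown is split between mitochondria, peroxisomes and lysosomes, while glucuronosyltransferases make small lipophilic compounds soluble. Several of these genes are best known from liver, fat or macrophages.

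With tamoxifen 7 of the 10 genes fell, 2 rose and 1, Abca1, was lower without passing the threshold. Cd36 fell most, by 4.04-fold, followed by Acsm3 with 2.40-fold and Ugt1a9 with 1.85-fold. Tmem86a rose 2.14-fold and Slc44a1 rose 1.64-fold. By probe set, 10 were called lower and 2 higher at an adjusted p under 0.05 (limma, Benjamini-Hochberg over all 35557 probe sets). In that fit 0.456% of all probe sets were called lower, 0.433% higher and 0.889% in either direction. The groups did not overlap in any of the 13 probe sets, which was so for 18.3% of all probe sets. Nothing is read from these counts, because the genes were chosen on the same contrast. The median log2 fold change was -0.70 over the 13 probe sets and -0.0092 over all probe sets. The arrays hold whole cultures, so fewer cells of a type and less RNA per cell cannot be told apart.

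**Figure D1:**
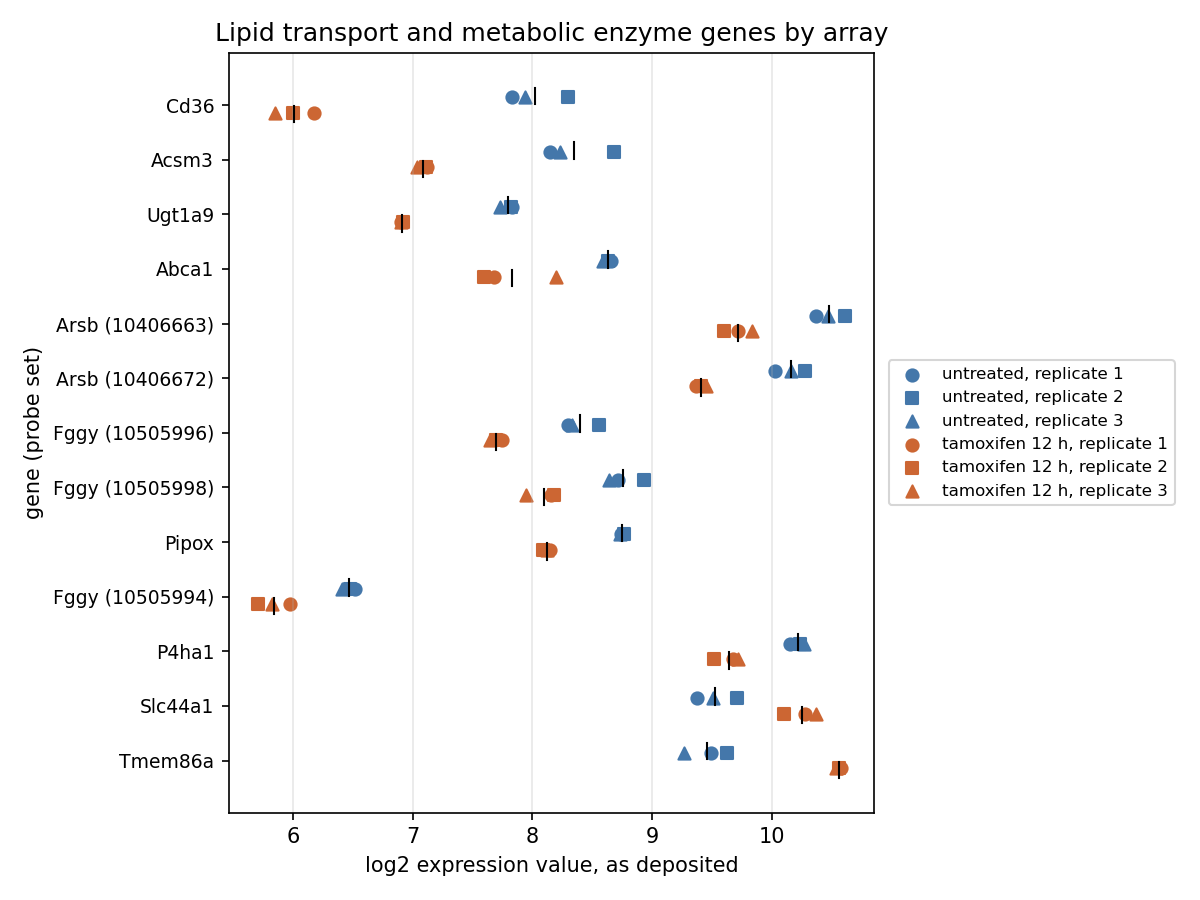
Deposited log2 expression values (horizontal axis) of the 13 probe sets of the 10 genes (vertical axis), in 3 untreated arrays (blue) and 3 arrays after 12 h of tamoxifen (orange), with marker shape for the replicate number and a black tick for each group mean. The groups do not overlap in any row; Cd36 shows the widest gap between them, and only Slc44a1 and Tmem86a lie higher with tamoxifen.

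The promoters of the 10 genes were read from RefSeq, as windows of 300 bases from 250 before to 50 after an annotated start. All 10 genes matched by symbol, with 12 windows, since Slc44a1 and Fggy have 2 each and those of Slc44a1 overlap almost wholly. Which start these cells use was not measured. The Gfi1 family binds a core of AATC, within a longer site that holds AAATCA. The windows with AAATCA on either strand, those of Cd36, Ugt1a9 and Pipox, are shown with these letters (TGATTT where the match is on the opposite strand) in capitals. The window of Tmem86a, the gene that rose most, is shown beside them and holds no AATC on either strand. The coordinates are those of GRCm38.p6, and each sequence is written 5′ to 3′ on the strand of its gene.
Cd36, chr5:17835847-17836146, minus strand: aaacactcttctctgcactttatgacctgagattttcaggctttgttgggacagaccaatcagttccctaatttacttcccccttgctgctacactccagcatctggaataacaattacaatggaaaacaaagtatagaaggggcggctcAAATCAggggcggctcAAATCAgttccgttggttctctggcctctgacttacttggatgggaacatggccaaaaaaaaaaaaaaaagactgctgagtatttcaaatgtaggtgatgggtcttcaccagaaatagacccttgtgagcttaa
Ugt1a9, chr1:88070529-88070828, plus strand: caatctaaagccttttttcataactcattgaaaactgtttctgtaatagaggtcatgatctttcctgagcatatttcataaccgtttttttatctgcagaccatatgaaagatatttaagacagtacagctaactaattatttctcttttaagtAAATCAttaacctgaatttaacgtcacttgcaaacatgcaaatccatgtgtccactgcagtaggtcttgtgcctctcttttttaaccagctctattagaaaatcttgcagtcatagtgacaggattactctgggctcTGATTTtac
Pipox, chr11:77893823-77894122, minus strand: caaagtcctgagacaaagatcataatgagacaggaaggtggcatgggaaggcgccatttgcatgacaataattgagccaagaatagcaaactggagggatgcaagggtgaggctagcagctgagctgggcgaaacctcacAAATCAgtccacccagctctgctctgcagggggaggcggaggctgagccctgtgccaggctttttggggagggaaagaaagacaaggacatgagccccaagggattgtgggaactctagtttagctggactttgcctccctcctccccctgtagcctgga
Tmem86a, chr7:47050390-47050689, plus strand: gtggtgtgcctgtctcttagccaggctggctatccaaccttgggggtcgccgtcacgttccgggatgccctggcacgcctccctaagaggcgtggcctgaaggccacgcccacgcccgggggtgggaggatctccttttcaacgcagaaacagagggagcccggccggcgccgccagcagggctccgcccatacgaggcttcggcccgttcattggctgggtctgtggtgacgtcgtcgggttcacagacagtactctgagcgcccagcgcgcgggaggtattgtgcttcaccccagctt

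In the Cd36 window the matches begin at -100 and -84 from the annotated start, 16 bases apart. Both copies follow the same 11 letters, aggggcggctc. Ugt1a9 has 1 match at -96 and 1 on the opposite strand at 42, and the Pipox match begins at -110. AAATCA was present in 3 of the 12 windows, and in 14.0% of all 32851 windows of this length. The shorter AATC, which every AAATCA contains, was in 9 of the 12 windows and in 73.1% of all windows. It was absent from the windows of Slc44a1 and Tmem86a, the 2 genes that rose, and present in at least 1 window of each of the other 8 genes. The windows also differ in base composition, which moves with matches to a motif rich in A and T. GC content was 79.7% in the first window of Slc44a1 and 66.0% in that of Tmem86a, against 34.3% in Ugt1a9, 43.0% in Cd36 and 70.3% in P4ha1, and its part in the matches was not tested. With so common a motif, and so few genes, these counts are a description of letters and not of binding.

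Motifs of other factors were searched in the same way, on both strands. The FoxO motif GTAAACA was in the Acsm3 window alone of the 12, at -59, and in 3.65% of all windows. The hypoxia response core ACGTG was in the windows of Abca1, P4ha1 and Tmem86a, and in 19.6% of all windows. In Abca1 it overlaps its own reverse complement at -147 and -146. No window of the 10 genes held an exact match to the liver X receptor motif DR4, the PPAR motif DR1 or the oestrogen response element. DR4 and DR1 are AGGTCA written again after 4 letters or after 1 letter, and the element is GGTCA and TGACC with 3 letters between them. The 3 motifs were in 0.0152%, 0.0396% and 0.0700% of all windows. That says only that these exact letters are not in these windows. Sites that differ from them in some letters were not searched, so a working site of any of the 3 kinds may be present.

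**Figure D2:**
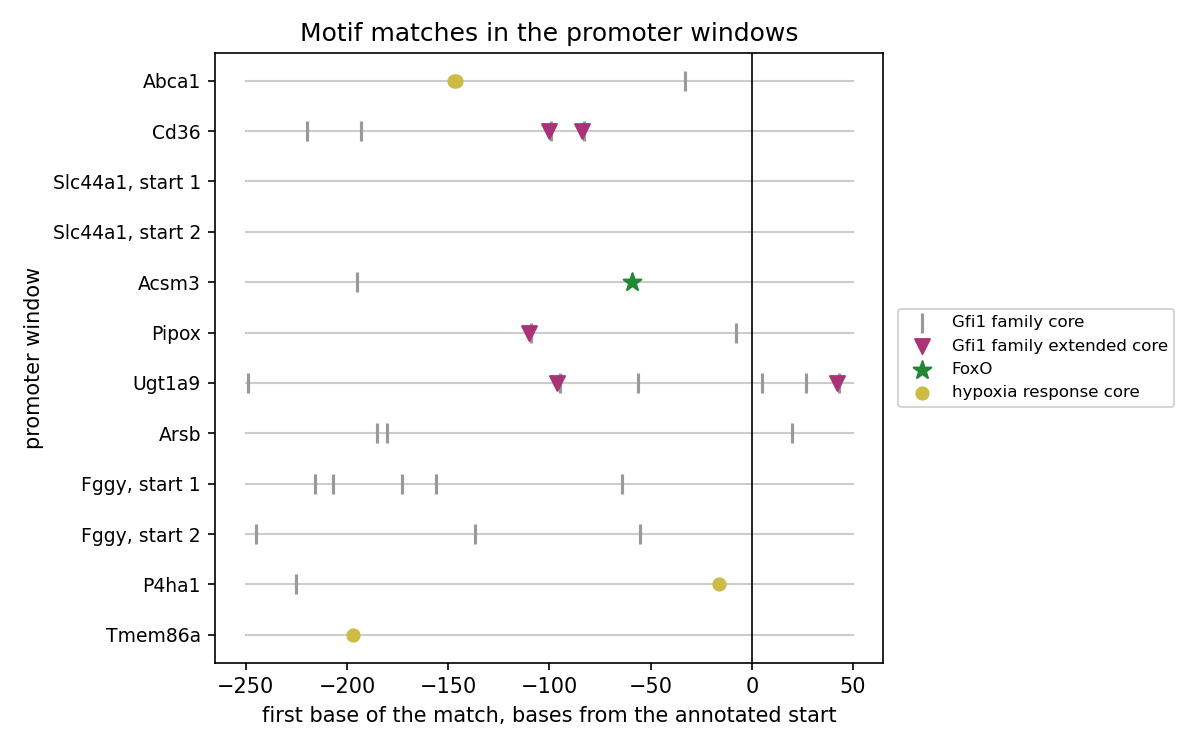
Motif matches on either strand in the 12 promoter windows, by the position of the first base of the match from the annotated start (horizontal axis, in bases) and by gene (vertical axis). Grey ticks mark AATC, purple triangles AAATCA, the green star FoxO and yellow dots the hypoxia response core; both windows of Slc44a1 are empty.

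Part of the variation between arrays ran across the treatment labels. Component 1 of the 6 arrays, with 46% of the variance, set untreated replicates 1 and 3 (-30.6 and -26.5) against their tamoxifen counterparts (26.6 and 23.4). For replicate 2 the sides were exchanged, the untreated array scoring 9.74 and the treated one -2.67. A block of 6667 low-numbered probe sets was set as those numbered below the lowest in the authors' table, so by definition it holds no row of it. With all 6 arrays 29 of the block were called at an adjusted p under 0.05 (limma). Medians of the block split the arrays as component 1 did. They were 7.26 and 7.27 in untreated replicates 1 and 3 and 7.31 in tamoxifen replicate 2. In tamoxifen replicates 1 and 3 and untreated replicate 2 they were 7.53, 7.48 and 7.5. Medians of the other probe sets, the 13 among them, lay the opposite way. In the same order they were 7.69, 7.68 and 7.62 against 7.54, 7.53 and 7.54. The source of this shift was not tested. Among the 13 probe sets, untreated replicate 2 was the highest of its group in 9, and it was so in 41.2% of all probe sets. Results are therefore also given for a fit that drops both arrays of replicate 2. In the 4 arrays that remain, component 1 and treatment cannot be told apart, so these values show what replicate 2 contributes and do not free the change of component 1. The fit was added once the data had been seen, and in it 4 of the 13 probe sets were called lower and 2 higher.

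Among the transporters, Cd36 had the largest change. Cd36, a surface receptor that takes up long-chain fatty acids and oxidised lipoproteins, is on chromosome 5 (probe set 10528207). It read 7.83, 8.30 and 7.94 in untreated replicates 1 to 3 and 6.18, 6.00 and 5.85 with tamoxifen. The highest tamoxifen value stayed 1.65 below the lowest untreated value. Group means were 8.02 ± 0.24 and 6.01 ± 0.17 (SD, n = 3 each). The log2 fold change was -2.01 ± 0.14 (SE; limma adjusted p = 0.0062). All 3 tamoxifen values lay below the lower quartile of their arrays, 6.29 to 6.32, and without a measure of background the fold is uncertain. Without both arrays of replicate 2 the log2 fold change was -1.87 (limma adjusted p = 0.029).

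Abca1, which exports cholesterol and phospholipid from the cell and is a well known target of the liver X receptors, is on chromosome 4 (probe set 10512949). It read 8.66, 8.63 and 8.59 untreated and 7.68, 7.60 and 8.20 with tamoxifen. The untreated arrays were close together, whereas tamoxifen replicate 3 lay nearer to them than to the other 2 treated arrays. The log2 fold change was -0.80 ± 0.16 (SE, n = 3 per group), with a 95% interval from -1.18 to -0.42 and a limma adjusted p of 0.10. The call turned with the setting: without tamoxifen replicate 3 the log2 fold change was -0.99 and the limma adjusted p 0.027. With all 6 arrays it passed with an intensity trend and robust variance (limma adjusted p = 0.046) and without a block of low-numbered probe sets (0.033). Abca1 passed in these 3 of the 15 other settings tried. Its log2 fold change was -0.68 without both arrays of replicate 2 (limma adjusted p = 0.10).

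Slc44a1, a choline carrier of the plasma membrane and of mitochondria, lies next to Abca1 on chromosome 4, with 0 protein-coding genes between them in the RefSeq table. Its probe set (10505028) is assigned to it through a cDNA record and not a RefSeq mRNA. It read 9.38, 9.71 and 9.51 untreated and 10.28, 10.10 and 10.37 with tamoxifen, so that the groups were 0.40 apart at their nearest values. Group means were 9.53 ± 0.16 and 10.25 ± 0.13 (SD, n = 3 each), a rise of 0.72 ± 0.11 on the log2 scale (SE; limma adjusted p = 0.048). The rise was 0.88 without both arrays of replicate 2 (limma adjusted p = 0.041). The neighbours thus differed in direction, the lower value of Abca1 not having passed. The call for Slc44a1 stood at the threshold: dropping each array in turn kept it in 1 of 6 fits, with limma adjusted p from 0.036 without untreated replicate 2 to 0.21 without tamoxifen replicate 1.

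Tmem86a, a membrane protein with lysoplasmalogenase activity, which splits lysoplasmalogens, is on chromosome 7 (probe set 10553324). It read 9.49, 9.63 and 9.27 untreated and 10.58, 10.56 and 10.54 with tamoxifen. The treated arrays were almost equal, and the untreated ones spread over a wider range, 0.91 or more below them. Its log2 fold change was 1.10 ± 0.097 (SE, n = 3 per group; limma adjusted p = 0.011). Without both arrays of replicate 2 it was 1.18 (limma adjusted p = 0.037).

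Of the enzymes that act on fatty acids and small molecules, Acsm3 had the largest change. Acsm3, which joins medium-chain fatty acids to coenzyme A in mitochondria, is on chromosome 7 (probe set 10556769). It read 8.15, 8.68 and 8.23 untreated and 7.12, 7.11 and 7.04 with tamoxifen. Untreated replicate 2 stood above the other 2 untreated arrays, and the treated arrays lay close together. The log2 fold change was -1.26 ± 0.14 (SE, n = 3 per group; limma adjusted p = 0.021), and without both arrays of replicate 2 it was -1.11 (limma adjusted p = 0.029).

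Pipox, a peroxisomal oxidase of pipecolic acid and sarcosine, is on chromosome 11 (probe set 10388718). It read 8.74, 8.77 and 8.73 untreated and 8.15, 8.09 and 8.12 with tamoxifen. Its change was among the smallest of the 10 genes, and so was its spread. The residual SD of 0.026 was below that of all but 1.95% of the probe sets. The log2 fold change was -0.63 ± 0.053 (SE, n = 3 per group; limma adjusted p = 0.0099). It was -0.60 without both arrays of replicate 2 (limma adjusted p = 0.045).

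Ugt1a9, an enzyme of the endoplasmic reticulum that links glucuronic acid to lipophilic compounds, is on chromosome 1 (probe set 10348354). It read 7.83, 7.82 and 7.73 untreated and 6.90, 6.92 and 6.90 with tamoxifen. Both groups were tight, and the log2 fold change was -0.89 ± 0.056 (SE, n = 3 per group; limma adjusted p = 0.0040), the smallest adjusted p of the 13 probe sets. The log2 fold change was -0.88 without both arrays of replicate 2 (limma adjusted p = 0.034). Genes of the Ugt1a cluster share their last exons, so that this probe set may read other members of the cluster as well.

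Fggy, a carbohydrate kinase that phosphorylates ribulose, is on chromosome 4 and had 3 probe sets. Probe set 10505998 read 8.72, 8.93 and 8.64 untreated and 8.16, 8.18 and 7.95 with tamoxifen. Probe set 10505996 read 8.30, 8.56 and 8.33 untreated and 7.75, 7.70 and 7.65 with tamoxifen. In both, untreated replicate 2 was the highest array. The dim probe set 10505994 read 6.52, 6.48 and 6.41 untreated and 5.98, 5.71 and 5.83 with tamoxifen, the latter all below the lower quartile of their arrays. The 3 log2 fold changes were close, -0.67 ± 0.10, -0.70 ± 0.084 and -0.63 ± 0.083 (SE, n = 3 per group), with limma adjusted p of 0.049, 0.026 and 0.033. Without both arrays of replicate 2 the changes were -0.62, -0.61 and -0.56 (limma adjusted p = 0.066, 0.051 and 0.065). The 3 probe sets read the same RNA samples and are not replicates of each other.

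Arsb, the lysosomal arylsulfatase that removes sulfate from dermatan and chondroitin sulfate, is on chromosome 13 and had 2 probe sets. Probe set 10406663 read 10.37, 10.61 and 10.47 untreated and 9.72, 9.60 and 9.84 with tamoxifen. Probe set 10406672 read 10.03, 10.28 and 10.16 untreated and 9.37, 9.41 and 9.45 with tamoxifen. Both showed the same order of the untreated arrays, with replicate 2 highest. Their log2 fold changes were -0.76 ± 0.092 and -0.74 ± 0.078 (SE, n = 3 per group), with limma adjusted p of 0.025 and 0.017. Without both arrays of replicate 2 the changes were -0.64 and -0.68 (limma adjusted p = 0.056 and 0.055).

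P4ha1, a catalytic subunit of the prolyl hydroxylase that modifies collagen, is on chromosome 10 (probe set 10363350). It read 10.15, 10.24 and 10.27 untreated and 9.68, 9.52 and 9.72 with tamoxifen, a gap of 0.44 between the groups. The difference of -0.58 ± 0.075 on the log2 scale (SE, n = 3 per group; limma adjusted p = 0.029) was the smallest in size of the 13. Without both arrays of replicate 2 it was -0.51 (limma adjusted p = 0.060).

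**Figure D3:**
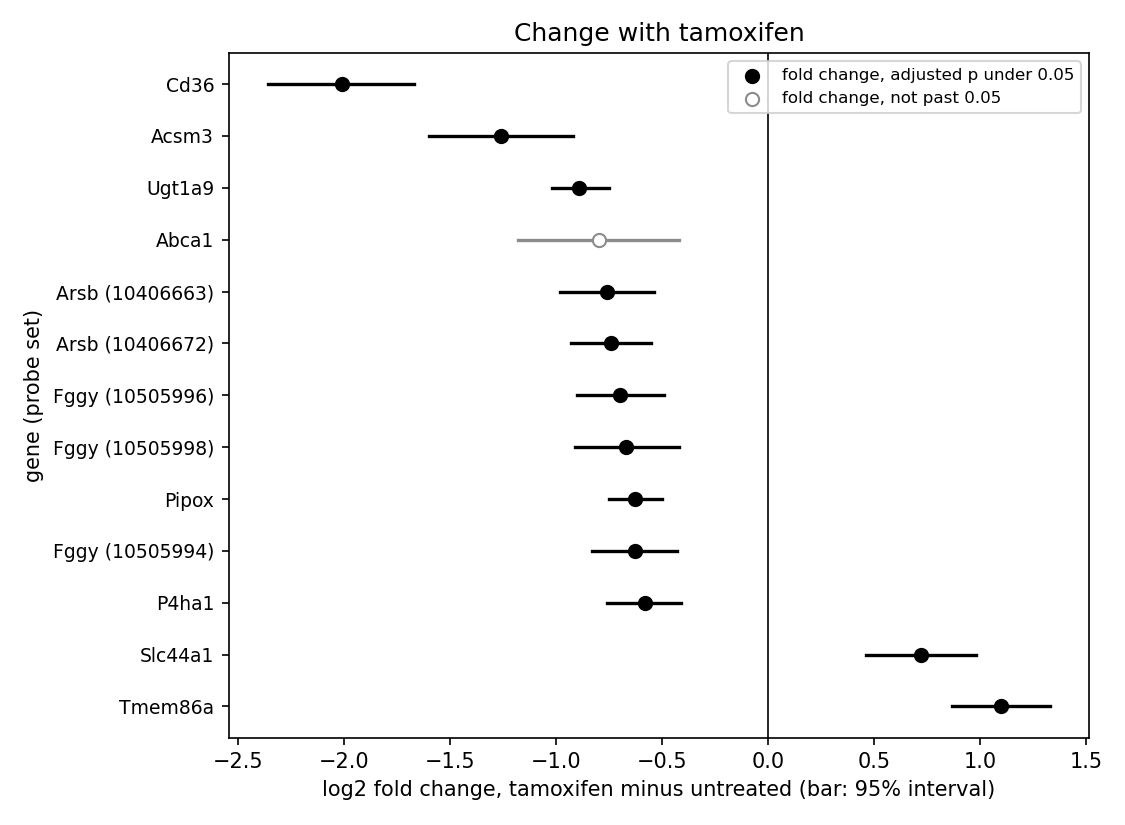
Log2 fold change, tamoxifen minus untreated (horizontal axis), of the 13 probe sets (vertical axis), with bars for the 95% interval from limma and n = 3 arrays per group. Filled points have an adjusted p under 0.05; Abca1, open, has the interval from -1.18 to -0.42, while Pipox and Ugt1a9 have the narrowest.

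Fewer probe sets were called with fewer arrays, and no log2 fold change turned its sign. When each of the 6 arrays was dropped in turn, between 2 and 7 probe sets were called lower and between 0 and 2 higher (limma). At an unadjusted p under 0.05 each of these fits held all 11 lower and both higher probe sets. Neither this nor the kept signs show stability. The genes were chosen on these arrays, and where groups do not overlap no sign can turn when 1 array is dropped. Cd36 and Ugt1a9 were the 2 probe sets called in all 6 of these fits, with log2 fold changes from -2.11 to -1.88 and from -0.92 to -0.87. The log2 fold change of Pipox lay between -0.64 and -0.61, that of Tmem86a between 1.00 and 1.18, that of Acsm3 between -1.37 and -1.10 and that of Abca1, the least steady, between -0.99 and -0.69. Whether the lost calls reflect particular arrays or only their smaller number was not tested. Leaving out untreated replicate 2 left the most calls, 7 lower and 2 higher. Without tamoxifen replicate 1, the fit with the fewest, 2 were called lower and 0 higher, as they were without tamoxifen replicate 2. The fits without untreated replicate 1 or tamoxifen replicate 3 gave 3 lower and 0 higher. The fit without untreated replicate 3 gave 2 lower and 1 higher. In these fits Tmem86a passed in 2, both probe sets of Arsb together in 1, and P4ha1 in 0.

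**Figure D4:**
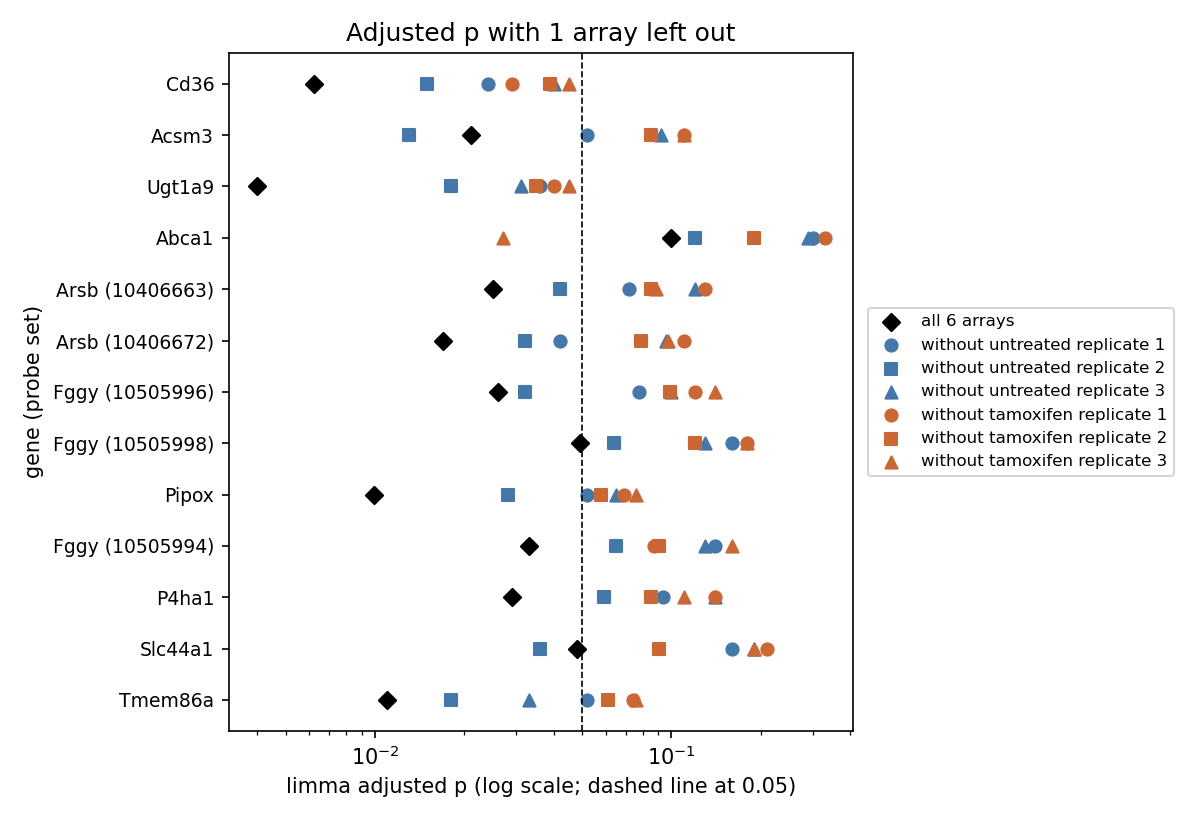
Limma adjusted p (horizontal axis, log scale) of the 13 probe sets (vertical axis) with all 6 arrays (black diamonds) and with 1 untreated (blue) or 1 tamoxifen array (orange) left out, with marker shape for the replicate number. Cd36 and Ugt1a9 stay left of the dashed line at 0.05 throughout, and Abca1 lies left of it only without tamoxifen replicate 3.

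Profiles most like those of the gene with the largest fall and the gene with the largest rise were sought among the 239 other named rows of the table. Likeness was the root mean square distance between log2 values over the 6 arrays, each row centred on its own mean. Closest to Cd36 were the secreted protein Crisp1, at a distance of 0.11, and the recombination activating genes Rag1 and Rag2, at 0.15 and 0.17. Their log2 fold changes were -2.17, -2.28 and -1.83. Closest to Tmem86a were the immune receptor Cd300lf, the kinase Camkk1 and the exchange factor Fgd2, at distances of 0.035, 0.045 and 0.058. Their log2 fold changes were 1.05, 1.15 and 1.04. This distance takes in the size of the change itself, and every row compared comes from a table of changed genes.

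The pathways of the 10 genes were described through 10 lists with 219 different genes. The table names 15 of these, the 10 genes above and 5 more, and absence from it does not show that a gene kept its level. Of the 15, 4 were called higher and 10 lower, where 0.433% and 0.456% of all probe sets were. The table itself leans to falls, with 149 of its 251 rows lower and 102 higher. It was chosen on these arrays, so the counts are not independent evidence of a direction. In the list of 29 choline and phospholipid genes, the 3 present all rose: Slc44a1, Tmem86a and Ptgs1, the prostaglandin synthase that starts from arachidonic acid. That shared direction depends on which genes were listed. Outside the lists, the glycerolipid enzymes Gpam and Agpat3 fell (log2 fold changes -0.80 and -0.87) and Agpat2 rose (0.73). Ptgs1 read 7.75, 7.99 and 7.75 untreated and 9.86, 9.75 and 10.01 with tamoxifen (log2 fold change 2.04 ± 0.099, SE; limma adjusted p = 0.0013). Among 25 lysosomal hydrolases the 3 present all fell, Arsb, the sulfatase Galns and the protease Ctss. Galns, which acts on keratan and chondroitin sulfate, read 9.59, 9.88 and 9.70 untreated and 8.89, 8.92 and 8.84 with tamoxifen (log2 fold change -0.84 ± 0.086, SE; limma adjusted p = 0.017). Ctss, cathepsin S, read 11.81, 11.77 and 11.72 untreated and 8.97, 8.93 and 8.95 with tamoxifen (log2 fold change -2.82 ± 0.055, SE; limma adjusted p = 3.7e-05).

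The 2 acyl-CoA synthetases present, of 26 genes of fatty acid activation and oxidation, moved in opposite directions. Acss2, which makes acetyl-CoA from acetate, read 7.59, 7.45 and 7.64 untreated and 8.27, 8.04 and 8.30 with tamoxifen, a rise of 0.64 ± 0.093 on the log2 scale (SE; limma adjusted p = 0.044), while Acsm3 fell. Of 21 genes of collagen hydroxylation and hypoxia, the 2 present both fell. Besides P4ha1 this was Plod2, a lysyl hydroxylase of collagen, which read 10.31, 10.69 and 10.61 untreated and 9.69, 9.79 and 9.76 with tamoxifen (log2 fold change -0.79 ± 0.11, SE; limma adjusted p = 0.035). Cd36 was the 1 gene present of 22 for fatty acid uptake and storage, and Abca1 the 1 of 20 for sterol efflux and liver X receptor targets. Pipox was the 1 of 17 peroxisomal and amino acid oxidases, Ugt1a9 the 1 of 21 for conjugation, and Fggy the 1 of 21 for carbohydrate kinases and pentoses. None of the 20 cholesterol synthesis genes is named in the table.

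Markers of the cell type could be read only where the table names them. Of 11 pro-B markers it names 3. Cd79b, a chain of the B cell receptor, read 11.74, 11.71 and 11.64 untreated, and Rag1 read 11.21, 11.47 and 11.34. With tamoxifen Rag1 and Rag2 fell and Cd79b rose, with log2 fold changes of -2.28, -1.83 and 0.65 (limma adjusted p = 0.00082, 0.0031 and 0.021). Of 12 macrophage and myeloid markers 2 are named, the lysozymes Lyz2 and Lyz1, and both rose, by 1.26 and 0.64 (limma adjusted p = 0.011 and 0.0081). Of 9 T and NK cell markers 2 are named: Tcf7 rose by 0.85 (limma adjusted p = 0.0060), and Zap70 had a log2 fold change of 0.63 (limma adjusted p = 0.078). None of 8 erythroid and megakaryocyte or 7 stromal and endothelial markers is named. The part of other cells in these results was not tested.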

How the data were processed

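Total RNA from 6 cultures was labelled with biotin for one-colour arrays, per the labels. The deposited matrix holds log2 values per probe set; the submitters' processing notes name Partek but neither its version nor its use. The genome build, the array design and how values were normalized are not stated there. The authors' deposited table gives a p-value and a signed fold, a score in which an n-fold fall is written -n, for 251 probe sets. Group means of the log2 values differed by the log2 of these folds to within 0.021, which settles base 2.

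Groups and replicate numbers come from the sample titles. Limma 3.58.1 in R 4.3.3 (lmFit, eBayes, no covariate; 4 residual and 2.49 prior degrees of freedom) was fitted to all 35557 probe sets as deposited, with Benjamini-Hochberg adjustment and a threshold of 0.05, and was tested on simulated data. The p-values cover only the spread among these 6 cultures. All 13 probe sets kept their deposited symbol in RefSeq (GRCm38.p6), 12 of them matched by accession. A listed gene with several probe sets was counted by the brightest. Named were all 10 genes, up to 4 further genes of each list with the largest change, and the 3 rows most like Cd36 and Tmem86a. Alternatives were a replicate block, quantile normalization, a filter on dim probe sets, array weights, an unmoderated test, an intensity trend with robust variance, median centring, and leaving out each array. The genes and lists were chosen with earlier results of these data known. Python 3.11.15 and matplotlib 3.10.9 were used for the figures.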

Additional observations from a re-analysis of the deposited data

How the results depend on the processing

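None of the 13 probe sets changed direction in any of the 15 alternatives. That is no sign of stability, because the genes were picked for their change on the same arrays. Counts of calls moved more, and beyond what fewer arrays or probe sets do the cause was not tested. Against 10 lower and 2 higher of the 13 probe sets, median centring gave 7 lower and 1 higher. The unmoderated test gave 2 lower and 0 higher, and the fit without both arrays of replicate 2 gave 4 lower and 2 higher. The 15 list genes in the table, 10 lower and 4 higher, gave 7 and 3 with median centring and 3 and 1 with the unmoderated test. Without both arrays of replicate 2 they gave 6 lower and 4 higher. Of all probe sets, 162 were lower and 154 higher. This became 22 and 18 with the unmoderated test, 376 and 814 with array weights, 311 and 410 with an intensity trend, 308 and 332 without a block of 6667 low-numbered probe sets that hold no row of the table, and 85 and 247 when both arrays of replicate 2 were dropped. The last 2 fits were chosen with the data in view. The filter on dim probe sets, which also leaves out Fggy probe set 10505994, gave 232 lower and 270 higher. Quantile normalization gave 309 lower and 212 higher, and median centring 104 lower and 130 higher. With 1 array left out, lower and higher counts ranged from 2 to 7 and from 0 to 2 for the 13 probe sets, from 3 to 7 and from 1 to 3 for the list genes, and from 28 to 136 and from 9 to 278 for all probe sets. Abca1 was called with an intensity trend, without the low-numbered block and without tamoxifen replicate 3 (limma adjusted p = 0.046, 0.033 and 0.027), over a range of 0.027 to 0.33.

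Arrays of the same replicate number did not deviate together, with correlations of -0.229, -0.45 and -0.0957 between their deviations from the group means. On component 1, replicate 2 stood apart in opposite directions among untreated and tamoxifen arrays. These correlations therefore cannot show that the cultures were unpaired. With the replicate block limma called 0 of the 13 probe sets in either direction. At an unadjusted p under 0.05 it held 11 lower and 2 higher, as did the unmoderated test. That unadjusted count says little, because the genes were chosen on these arrays. The block left 1 lower and 1 higher list gene, and 16 lower and 6 higher of all probe sets. No measure of background was used here, so how far dimness limits Cd36 and Fggy is unknown.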

Other observations

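The table names further genes of lipid and amino acid metabolism that stand in none of the lists; 18 were picked by name after the table had been seen, so their counts are a description. Of these 18, 5 were called higher and 8 lower (limma, adjusted p under 0.05), and 5 did not pass, where 0.433% of all probe sets were called higher and 0.456% lower. The authors' table holds changed genes only, with 149 rows lower and 102 higher, so nothing is read from this. Enzymes that build glycerolipids were split. Gpam, which adds the first fatty acid to glycerol phosphate, read 11.22, 11.29 and 11.23 untreated and 10.50, 10.34 and 10.51 with tamoxifen, a fall of 0.80 ± 0.068 on the log2 scale (SE; limma adjusted p = 0.010). Agpat3, an acyltransferase of the next step, fell by 0.87, and its relative Agpat2 rose by 0.73 (limma adjusted p = 0.016 and 0.023). The fatty acid elongase Elovl7 rose by 0.81, the peroxisomal oxidase Acox3 by 0.82 and the cytochrome P450 gene Cyp4f16 by 0.71 (limma adjusted p = 0.019, 0.026 and 0.031). The receptors Cysltr1 for cysteinyl leukotrienes and Lpar6 for lysophosphatidic acid fell, with log2 fold changes of -0.92 and -1.37 (limma adjusted p = 0.014 and 0.0053).

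Of the amino acid enzymes, Kynu, which cleaves kynurenine, fell 3.05-fold. It read 8.88, 9.34 and 8.86 untreated and 7.57, 7.41 and 7.27 with tamoxifen (log2 fold change -1.61 ± 0.15, SE; limma adjusted p = 0.014). Kyat3, a kynurenine aminotransferase, fell by 0.63 and Ddc, the aromatic amino acid decarboxylase, rose by 0.83 (limma adjusted p = 0.021 and 0.014). The mitochondrial carbonic anhydrase Car5b and Mtap, which salvages methylthioadenosine, fell by 1.23 and 0.65 (limma adjusted p = 0.020 and 0.017). Pla2g2f, Alox5ap, Ptgir, Sult1d1 and Atp10a did not pass, with log2 fold changes of 0.73, 0.72, 0.72, -0.75 and -0.61 and limma adjusted p from 0.058 to 0.17.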
